A study of Mus musculus with 6 samples.

Results

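The genes described here are the mouse zinc finger genes Zfp500 to Zfp999, together with Rex2. They were picked by name from the deposited FPKM table, and 166 of its 18312 genes met the rule. Rex2 has no number but belongs to the same kind of gene. Earlier reading of this table had shown very low ratios of effective to model length for Zfp534, Zfp600 and Rex2, which were known when the set was chosen. The levels and ratios of these 3 genes are therefore a description and carry no test.

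The study looked for mRNAs bound by Brf1 and Brf2, RNA-binding proteins of the ZFP36 family encoded by Zfp36l1 and Zfp36l2, in mouse embryonic stem cells. Its 6 libraries formed 3 groups of 2: RNA precipitated with the antibody to Brf1 and Brf2, RNA precipitated with rabbit IgG, and total RNA. Cytoplasmic extracts were used for the precipitations, and all libraries came from wild-type E14 cells, an established line of 129/Ola background, kept in medium with 15% serum and LIF at 1000 U per ml, and no label says whether replicates were separate cultures. The table holds 1 value per gene, 22625281 counts in all, and its columns name no library, so it was tied to no group and no comparison between groups was made.

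There are no replicates, and intervals are those of the authors' table, which cover counting error only. FPKM is the count scaled to the length of the transcript and to the total count. The deposited values use the effective length that eXpress estimated, and most levels are also given on the model length, the plain length of the transcript. Bare values in brackets after FPKM values are those on the model length. A level in this table measures neither binding nor enrichment, and in bulk RNA more cells with a transcript and more RNA per cell cannot be told apart. The stem cell factors Pou5f1, Nanog and Sox2 were present at 605, 187 and 179 FPKM on the effective length (919, 183 and 260).

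Most genes of this kind encode C2H2 zinc finger proteins, in which each finger is a short loop held by a zinc ion that can read a few bases of DNA. Many also carry a KRAB box at the amino-terminal end, which recruits the corepressor Trim28 and through it Setdb1, a histone H3 lysine 9 methyltransferase. In mouse embryonic stem cells such proteins are known for silencing endogenous retroviruses and for protecting imprinted regions. They lie in clusters formed by repeated duplication, and a cluster at the distal end of chromosome 4 that includes Zfp534, Zfp600 and Rex2 is known for silencing retroelements in mouse embryonic stem cells.

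The 3 genes with the highest level of the set belong to the same cluster on chromosome 4. To show what their repeats look like, the finger with the most similar coding sequence in the 3 genes is printed below. It was chosen for its likeness among 15 to 17 fingers per gene, so that likeness is no measure of the whole genes. Each line gives 84 bases (28 codons), 5′ to 3′ on the coding strand, from the first cysteine of the finger to the linker that follows it. All 3 lie in coding exons on chromosome 4 (GENCODE M21, GRCm38), and capitals mark the 5 positions where the 3 genes are not all alike.
Zfp534, finger 10: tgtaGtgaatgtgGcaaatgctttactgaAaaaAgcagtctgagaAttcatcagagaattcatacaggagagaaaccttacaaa
Zfp600, finger 3: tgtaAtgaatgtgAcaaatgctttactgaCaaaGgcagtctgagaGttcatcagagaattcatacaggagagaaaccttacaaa
Rex2, finger 3: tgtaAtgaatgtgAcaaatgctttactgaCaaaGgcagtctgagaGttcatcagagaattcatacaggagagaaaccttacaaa
Zfp600 and Rex2 had 0 differences over the 84 bases, and Zfp534 had 5 differences from each of them. Their annotated proteins have 15 fingers in 661 residues for Zfp534, 17 fingers in 737 residues for Zfp600 and 15 fingers in 685 residues for Rex2.

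Zfp534 was the highest, at 1410 FPKM (1391 to 1429, 21622 counts), rank 20 among all genes of the table. Zfp600 had 475 FPKM (466 to 485, 10781 counts) and Rex2 had 460 FPKM (450.8 to 469, 9771 counts), ranks 122 and 127. The intervals of Zfp600 and Rex2 overlap, which is no test of their order, and none was made. That of Zfp534 lies apart from both. The effective length of Zfp534 was 678 nt against a model length of 2884 nt, a ratio of 0.235. For Zfp600 the effective length was 1002 nt against 4244 nt (ratio 0.236), and for Rex2 it was 939 nt against 3998 nt (ratio 0.235). On the model length the levels were 331 FPKM for Zfp534 (327 to 336), 112 for Zfp600 (110.1 to 114) and 108.0 for Rex2 (106 to 110.2). Their ranks among all genes were then 197, 668 and 704. The 3 genes stayed at the top of the set on both lengths, and by counts alone they ranked 110, 336 and 381. Together they held 42174 counts, 26.6% of those of the set and 0.186% of the table (Wilson 95% interval 0.185 to 0.188).

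**Figure D1:**
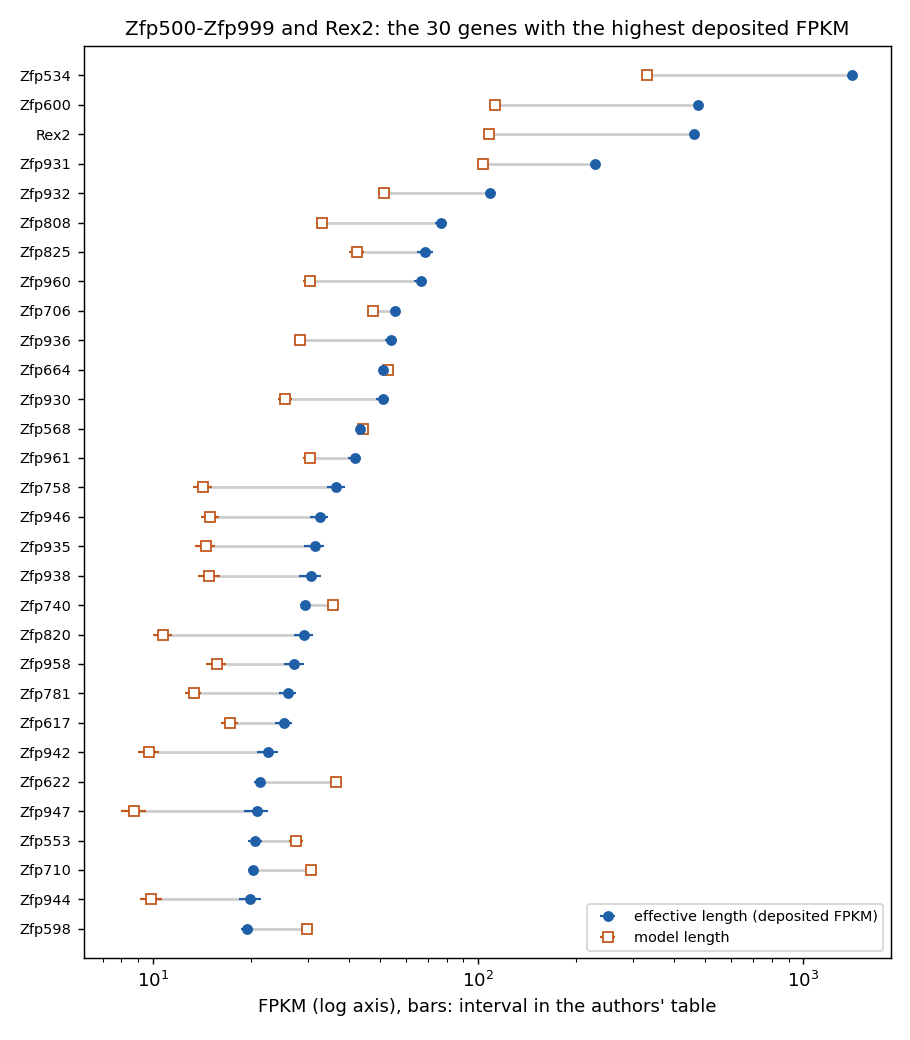
FPKM (log axis) of the 30 genes of the set with the highest deposited level. Filled circles use the effective length and open squares the model length, each with the interval of the authors' table, and the grey line joins both values of a gene. Zfp534 stands at 1410 and 331 FPKM, and genes such as Zfp622 and Zfp710 lie higher on the model length.

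Below these, Zfp931 had 229 FPKM (222 to 237, 4173 counts) and 104 on the model length (100.5 to 106.9), where its interval overlaps that of Rex2. Zfp932 had 109 FPKM on the effective length and 51.4 on the model length. Its protein, with that of its neighbour Gm15446, is known to repress endogenous retroviruses in mouse embryonic stem cells. Zfp808 had 77.1 and 33.1 FPKM on effective and model length, Zfp825 had 68.7 and 42.3, and Zfp960 had 66.7 and 30.4. Each of these was lower on the model length beyond its interval, and the intervals of Zfp825 and Zfp960 on the effective length overlap. Zfp936 had 54.0 FPKM (28.4 on the model length), Zfp930 50.8 (25.4), Zfp961 41.7 (30.3) and Zfp758 36.5 (14.2).

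A few of the leading genes moved less with the length. Zfp664 had 51.1 FPKM (49.6 to 52.5) and 53.0 on the model length, with a ratio of 1.04 and just above its interval. Zfp568, which represses a placental transcript of Igf2 in mouse, had 43.3 FPKM (42.3 to 44.3, 7190 counts) and 44.3 on the model length, within its interval. Zfp706, a small protein with a single finger that promotes exit from self-renewal in mouse embryonic stem cells, had 55.4 FPKM (53.8 to 57.0) and 47.4 on the model length, below its interval. Of the 15 highest genes on each length, 12 were shared. Zfp758, Zfp930 and Zfp936 were among the 15 on the effective length only, and Zfp622, Zfp710 and Zfp740 on the model length only.

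Across the set, 139 of 166 genes (83.7%) had at least 1 FPKM, against 166 of the 180 other genes with a Zfp number (92.2%) and 10257 of all 18312 genes (56.0%). By model length 143 of the 166 did. The median of the set was 5.22 FPKM (quartiles 2.01 and 13.6), that of the other Zfp genes 6.18 and that of all genes 1.94. By model length these medians were 4.75, 5.78 and 2.58. Both kinds of Zfp gene thus lay above the median of the table, and the set lay slightly below the other Zfp genes on either length. Few genes stood at very high levels: 5 of the set (3.01%) reached 100 FPKM, against 2 of the other Zfp genes and 3.06% of all genes. The 2 other Zfp genes were Zfp42, a pluripotency marker also called Rex1, at 158 FPKM (281) and Zfp207, a spindle-linked protein, at 110 (93.6). By model length 4 of the set, 1 of the other Zfp genes and 769 of all genes reached 100 FPKM. At 10 FPKM or more there were 54 genes of the set (32.5%), 61 of the other Zfp genes and 27.5% of all genes. By model length there were 49 of the set (29.5%), 55 of the other Zfp genes and 31.7% of all genes, so the set lay above the table on the effective length and below it on the model length. All 166 genes together held 158419 counts, 0.7002% of the table (Wilson 95% interval 0.697 to 0.704).

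**Figure D2:**
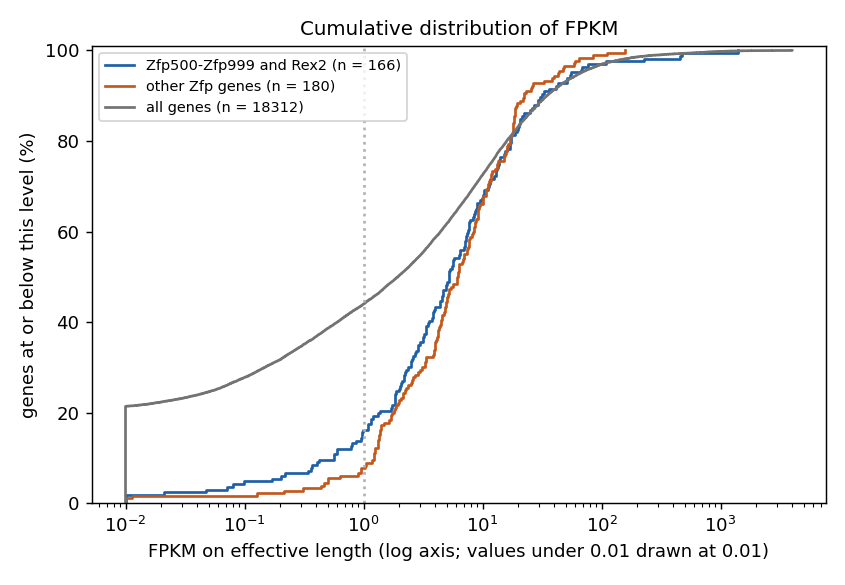
Cumulative share of genes (%) at or below each deposited FPKM (log axis) for Zfp500 to Zfp999 with Rex2, for the other Zfp genes and for all genes. At 1 FPKM, marked by the dotted line, 83.7% of the set and 92.2% of the other Zfp genes lie at or above it, against 56.0% of all genes.

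The lower end of the set was sparse. Zfp648 and Zfp572 had 0 counts, which allows up to 0.0423 FPKM for Zfp648 (0.0706) and 0.152 for Zfp572 (0.121), from the limit of 3 counts. Zfp541, a factor of male meiosis, had 3 counts and 0.0212 FPKM (0.0291), and Zfp735 and Zfp616 also had 3 counts each. Of the 166 genes, 159 had at least 10 counts. Just above 1 FPKM lay Zfp658 at 1.098 (0.868 to 1.33) and Zfp872 at 1.08 (0.774 to 1.39), and just below it Zfp939 at 0.997 (0.664 to 1.33) and Zfp775 at 0.974 (0.801 to 1.15). Those 4 intervals overlap, and on the model length Zfp872 lay below 1 at 0.732 with Zfp939 at 0.804, and Zfp775 above it at 1.37 with Zfp658 at 1.19. At the edge of the rule, Zfp503 and Zfp507 inside it had 0.218 and 8.995 FPKM (0.388 and 11.6), and Zfp498 and Zfp493 outside it had 6.06 and 6.34 (9.30 and 3.38).

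The set was then read by the roles of its members, from lists drawn up with earlier results of the table known. Of the 5 listed KRAB zinc finger genes with known retroelement or imprinted targets, all 5 had at least 1 FPKM, against 83.7% of the set. Besides Zfp932 and Zfp568, Zfp809, which silences murine leukaemia virus through its primer binding site, had 12.4 FPKM (13.6 on the model length). Zfp819, linked to the repression of endogenous retroelements, had 7.18 FPKM (7.70), and Zfp708, which targets RMER19B retrotransposons, had 5.24 (2.11). In this list Zfp932 was highest and Zfp708 lowest on both lengths. The KRAB pattern used further on was not found in the annotated proteins of Zfp932 and Zfp708, and its looser form was found in Zfp932 but not in Zfp708.

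Proteins linked to ribosomes formed the second list, with 3 of 3 above 10 FPKM, against 32.5% of the set. Zfp622, a factor of large subunit maturation, had 21.3 FPKM and 36.5 on the model length. Zfp598, the ubiquitin ligase that marks collided ribosomes, had 19.5 and 29.8, and Zfp593, a large subunit assembly factor in yeast and human, had 10.4 and 12.7. These 3 genes were all higher on the model length, unlike Zfp534, Zfp600 and Rex2.

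Of 8 listed neural or lineage factors, 5 were measured, and their median was 1.15 FPKM (1.19 on the model length). Zfp609, which acts with the cohesin loader Nipbl in neural progenitors, had 13.97 FPKM (17.0). Zfp711, an X-linked gene tied to intellectual disability in human, had 1.19 (1.27), and Zfp750, a regulator of epidermal differentiation, had 1.15 (1.19). Zfp536, a repressor of neural differentiation, had 0.169 (0.261), and the lowest of the 5 was Zfp541, at 0.0212. The transcriptional repressors Zfp703 and Zfp503 of the NET family had 0.363 FPKM (42 counts) and 0.218 FPKM (37 counts), with 0.585 and 0.388 on the model length.

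Of the Z3 complex, which binds chromatin, 2 of 3 listed genes were measured, Zfp687 at 10.1 FPKM (13.5) and Zfp592 at 3.77 (4.67). All 10 listed genes with other known roles reached 1 FPKM, against 83.7% of the set, and the median of the 10 was 12.5 (14.5 by model length). They ranged from Zfp653 at 2.19 FPKM (3.82) to Zfp706 at 55.4 (47.4). Zfp828, which aligns chromosomes at mitosis and is now named Champ1, had 17.0 FPKM (24.8). Zfp644, a partner of the histone methyltransferases G9a and GLP, had 16.1 (16.4). Zfp830 had 13.7 (15.1), and Zfp652, a partner of a corepressor of the ETO family, had 11.2 (13.9). Zfp668, linked to DNA repair, had 4.65 (6.31), and Zfp746, a substrate of the ubiquitin ligase Parkin, had 3.93 (5.82). Zfp639 had 17.5 (18.5) and Zfp768 had 2.26 (3.48).

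Genes listed for the Trim28 pathway, outside the set, were measured too. Of 13 listed genes 12 were in the table, and all 12 had at least 1 FPKM, against 56.0% of all genes. The median of the 12 was 82.6 FPKM (94.0 by model length), against 5.22 for the zinc finger genes. Trim28 had 251 FPKM (248 to 254, 32420 counts) and 442 on the model length, and Setdb1 had 21.3 and 35.9. The heterochromatin proteins Cbx3, Cbx1 and Cbx5 had 249, 204 and 89.4 FPKM (263, 257 and 81.7). Hdac1, Hdac2 and Chd4 of the NuRD deacetylase complex had 154, 85.2 and 79.9 FPKM (275, 100.8 and 156), and Chd3 had 2.58 (5.64). Dnmt1, the maintenance DNA methyltransferase, had 43.1 (87.3), Morc3 had 39.0 (46.6) and Atf7ip, a cofactor of Setdb1, had 13.3 (19.6). On the effective length only Zfp534, Zfp600 and Rex2 of the set lay above Trim28, and Trim28 lay above all 166 genes on the model length.

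A protein pattern of conserved KRAB residues was found in 75 of 163 annotated proteins of the set and 61 of 180 of the other Zfp genes. Over the table it was found in 152 of 18039 proteins, both groups included. Genes of the set with this box had a median of 5.19 FPKM (4.22 on the model length) and the 88 without it 5.64 (6.27). With a looser pattern, 90 genes had the box at a median of 6.84 FPKM (6.04) and 73 lacked it at 3.97 (4.49), so the order of the medians turned with the pattern. The number of fingers had a median of 10 and reached 33 in Zfp619 and 27 in Zfp646. Over the 163 genes it had a Spearman correlation of 0.0899 with FPKM and -0.0281 with the level on the model length.

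The ratio of effective to model length differed widely between the genes, from 0.235 to 2.34. Its median was 1.02 in the set, 0.973 in the other Zfp genes and 1.27 over all genes. On the model length 62 genes of the set lay above the interval of their deposited FPKM, 63 lay below it and 41 within it, against 9250, 1043 and 8019 of all genes. Genes with 0 counts always fall within it, and these were 2 in the set and 3844 over the table. Ratios in the set ran with the GC content of the transcript. Their Spearman correlation was 0.926 over 146 genes with a matched transcript and 0.922 without Zfp534, Zfp600 and Rex2, against 0.678 over 15455 genes of the table. All points come from the same profile, so they share its depth and its libraries, and no cause was tested.

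The first fingers of Rex2 and Zfp777 show both ends of this range in sequence, since these have the lowest and the highest ratio among genes with at least 100 counts and a matched transcript. Each line gives 84 bases of coding exon, 5′ to 3′ on the coding strand (GENCODE M21, GRCm38), and capitals mark G and C.
Rex2, chromosome 4: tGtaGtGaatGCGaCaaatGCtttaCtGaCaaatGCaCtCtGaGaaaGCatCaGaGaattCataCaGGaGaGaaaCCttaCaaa
Zfp777, chromosome 6: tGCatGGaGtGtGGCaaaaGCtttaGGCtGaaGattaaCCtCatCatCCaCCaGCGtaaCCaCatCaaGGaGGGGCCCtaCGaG
GC made up 38.1% of the finger of Rex2 and 51.2% of that of Zfp777. Zfp777 had a ratio of 2.01, and its level was 3.34 FPKM on the effective length and 6.71 on the model length. The highest ratio with at least 100 counts was that of Zfp771, 2.34, with 4.53 FPKM on the effective length and 10.6 on the model length.

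Ordered by GC, the 49 genes with the lowest content (33.8 to 42.2%) had a median of 15.2 FPKM and a median ratio of 0.576. The 48 genes in the middle had 4.97 FPKM and 1.03, and the 49 with the highest content (51.1 to 66.3%) had 2.50 FPKM and 1.46. On the model length the 3 medians were 8.73, 4.34 and 3.82 FPKM, so the order stayed and the gap narrowed. In the group of lowest GC 45 genes were lower on the model length beyond their interval and 0 higher, and in the group of highest GC 0 were lower and 42 higher. Over the 146 genes GC had a Spearman correlation of -0.457 with the deposited FPKM and -0.243 with the level on the model length. Over all genes the values were 0.0658 and 0.116.

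**Figure D3:**
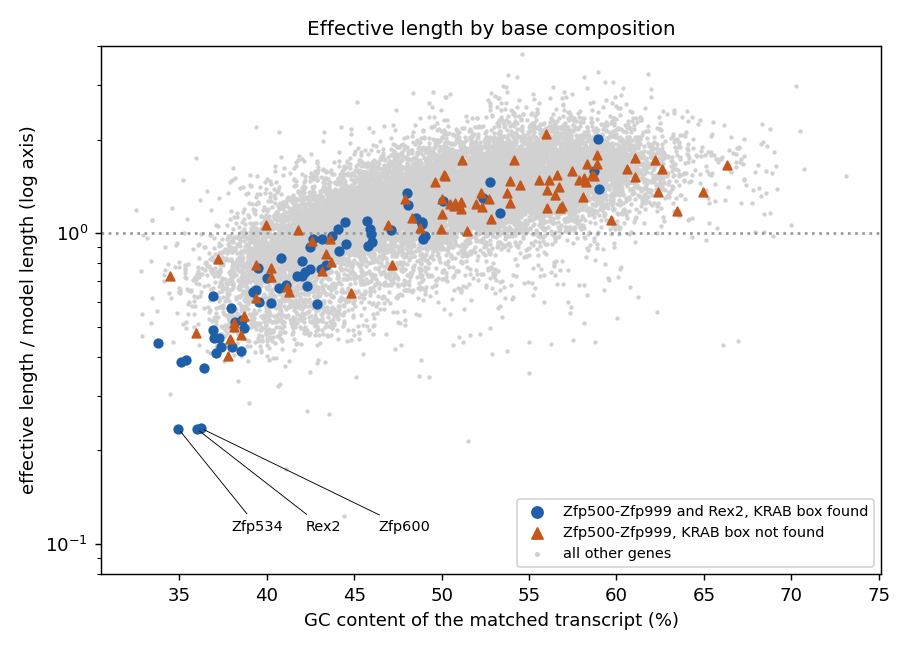
Ratio of effective to model length (log axis) against GC content (%) of the matched transcript. Circles are genes of the set with the KRAB pattern and triangles the rest of the set. The triangles include Zfp572, Zfp783 and Zfp939, which had no annotated protein to search. Grey points are the other genes, of which 7 of 15309 lie outside the axis. The set runs along the lower side of the grey cloud. Among genes of like GC content with at least 100 counts, Zfp534, Rex2 and Zfp600 lie lowest, at 0.235 to 0.236.

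The ratios of Zfp534, Zfp600 and Rex2 were known to be low when the set was chosen, so the values around them are given as a description. They were set beside genes without a Zfp number that had at least 100 counts and lay within 1 percentage point of GC. That choice went by name alone, so zinc finger genes under other names were not left out. The other Zfp genes were left out of it, and their lowest ratio, at any GC and count, was 0.284. For Rex2 there were 45 such neighbours, with a lowest ratio of 0.496 (Ap1s2) and a median of 0.742. For Zfp600 the 45 neighbours had the same lowest value and a median of 0.752. For Zfp534 the 26 neighbours had a lowest value of 0.304 (2610305D13Rik) and a median of 0.674. Within the set the nearest ratios were 0.369 for Zfp820 and 0.390 for Zfp758. Zfp820 had 29.0 FPKM (27.1 to 31.0, 897 counts) and 10.7 on the model length.

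Shared sequence was also high in these genes. The share of all stretches of 50 bases of a transcript that also occur in another, non-overlapping gene was 90.3% for Rex2, 85.0% for Zfp600 and 70.4% for Zfp534. Zfp600 held 81.7% of the stretches of Rex2, and Zfp980 held 59.1%. For Zfp534 the largest shares were 56.0% in Zfp987, 53.7% in Gm8935 and 44.0% in Zfp988. Of the genes holding at least 20%, 1 of 4 had a row for Rex2, 1 of 4 for Zfp600 and 0 of 5 for Zfp534. Total and unique counts differed in 0 rows of the table, so how reads common to such copies were assigned cannot be read from it, and the levels of these genes are uncertain for that reason.

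At least 10% of shared stretches were found in 14 of 146 genes of the set (9.59%), against 24 of 156 other Zfp genes (15.4%) and 1843 of 15455 genes (11.9%). The 14 had a median of 40.0 FPKM (22.8 on the model length), and the 132 others had 4.79 (4.46). Median GC was 38.6% in the 14 and 48.1% in the 132, and the median ratio was 0.505 and 1.06. Over the 146 genes the shared percentage had a Spearman correlation of 0.397 with FPKM, against -0.0212 over 15455 genes of the table. On the model length these were 0.282 and -0.0338, and no cause was tested. Without Zfp534, Zfp600 and Rex2, whose levels were known beforehand, the median of the remaining 11 was 25.3 FPKM (13.3 on the model length). Among the 14 were also Zfp781 (96.3%, 25.96 FPKM), Zfp960 (84.5%), Zfp932 (55.5%) and Zfp617 (44.8%, 25.3 FPKM). Not all of them were high, since Zfp747 (36.9%) had 2.88 FPKM (4.22 on the model length), Zfp764 (27.6%) had 2.38 (3.08) and Zfp939 (13.9%) had 0.997 (0.804). For 7 of the 14 the closest copy had a row of its own. The closest copy of Zfp960 was Zfp97, at 59.6 FPKM on the effective length and 27.8 on the model length. For Zfp932 it was Gm15446, which had no row of its own.

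**Figure D4:**
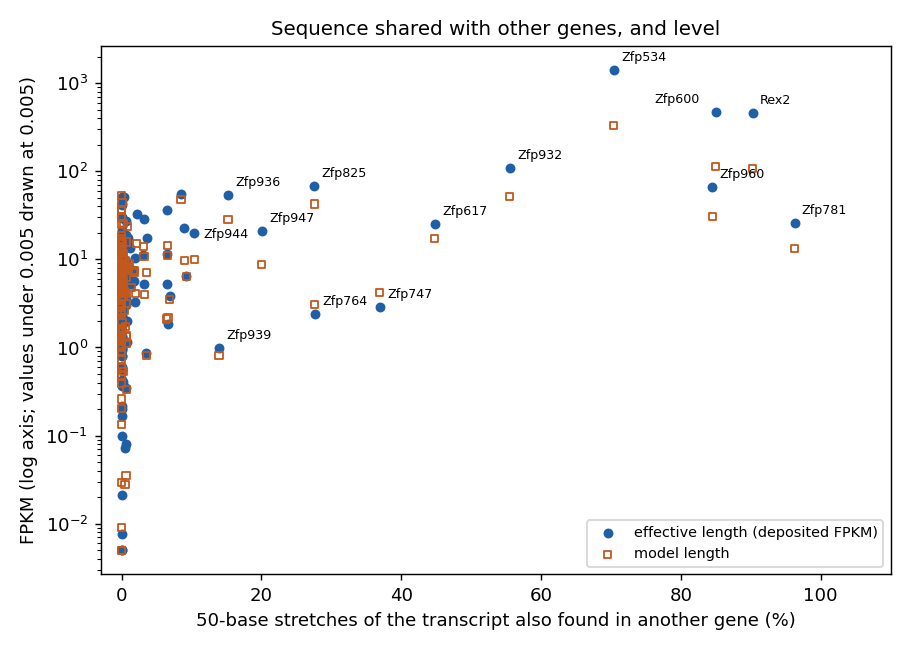
FPKM (log axis) against the share (%) of 50-base stretches that a transcript has in common with another gene, for the 146 genes with a matched transcript. Filled circles use the effective length and open squares the model length, and genes sharing at least 10% are named. Zfp534, Zfp600 and Rex2 lie at the upper right, and Zfp747, Zfp764 and Zfp939 lie low.

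Levels also differed with gene number. The 30 genes from Zfp900 to Zfp999 had a median of 16.2 FPKM, and 19 of them reached 10 FPKM. Medians were 3.55 for Zfp500 to Zfp599, 3.998 for Zfp600 to Zfp699, 3.81 for Zfp700 to Zfp799 and 6.45 for Zfp800 to Zfp899. On the model length the medians from Zfp500 upwards were 4.29, 4.02, 3.76, 6.78 and 8.85, and 12 genes of the last group reached 10 FPKM. The median ratio in the same order was 1.23, 1.21, 0.933, 0.941 and 0.649, and median GC was 53.8, 50.8, 46.0, 44.1 and 39.5%. Genes of the highest numbers thus had the lowest GC, the lowest ratio and the highest median on both lengths.

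**Figure D5:**
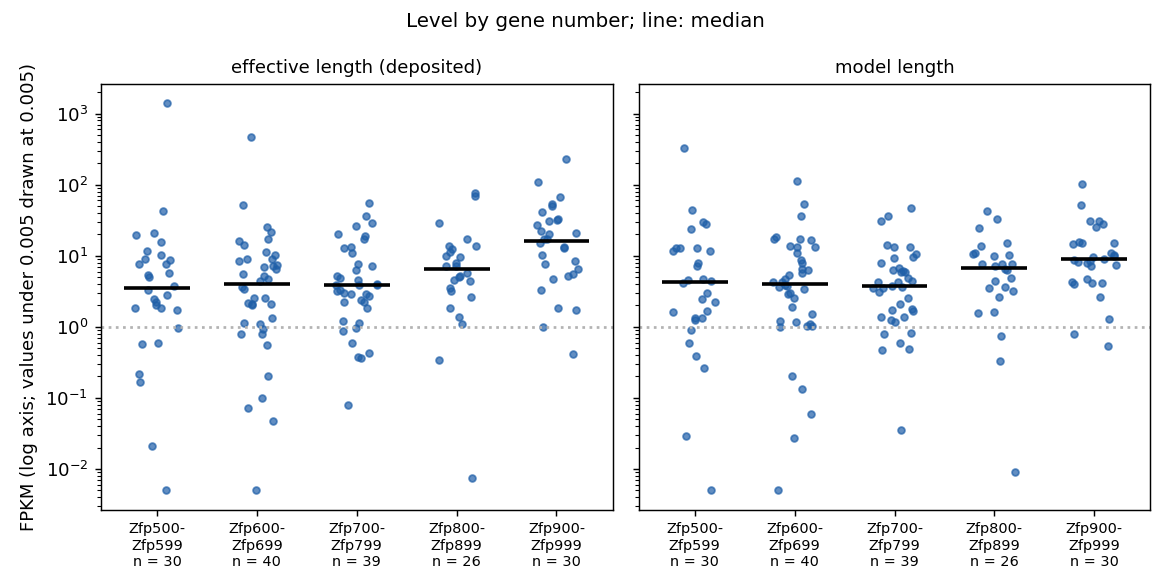
FPKM (log axis) of each gene by the first digit of its number, on the effective length (left) and on the model length (right). Points are genes, black lines medians and the dotted line 1 FPKM. The median of Zfp900 to Zfp999 is 16.2 on the left and 8.85 on the right, and Zfp534 is the highest point of the first column in both.

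The genes were clustered in the genome. Chromosome 7 held 47 of them, chromosome 17 held 21 and chromosome 8 held 17. A run allowed gaps of at most 2 other genes of the table, not counting the other Zfp genes. In all, 15 runs of at least 3 genes held 74 of the 166. Zfp600, Rex2, Zfp534 and Zfp933 made up the run on chromosome 4, and in it Zfp933 was far lower, at 10.3 FPKM (7.43 on the model length, ratio 0.724). The longest run had 11 genes on chromosome 17, among them Zfp758, Zfp946, Zfp820 and Zfp942. All 11 had between 4.42 and 36.5 FPKM with a median of 19.9, and their ratios lay between 0.369 and 0.668. On the model length they had between 1.90 and 15.0 FPKM with a median of 9.72. Another run of 7 genes on chromosome 17, with Zfp871 and Zfp763, had a median of 5.62 FPKM (4.81 on the model length).

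The run of Zfp781, Zfp873 and Zfp938 on chromosome 10 had the highest median after that of chromosome 4, 25.96 FPKM (13.3 on the model length). On both lengths that median is the level of Zfp781, with 96.3% of its 50-base stretches also in another gene. A run of 7 genes on chromosome 13 that includes Zfp708 had a median of 5.24 FPKM and 2.11 on the model length. A run of 5 genes on chromosome 6, with Zfp777 and Zfp746, had a median of 1.85 FPKM (2.63 on the model length) and ratios from 1.29 to 2.01. The run of Zfp790, Zfp940, Zfp568 and Zfp566 on chromosome 7 ranged from 2.21 to 43.3 FPKM, with Zfp568 highest.

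Brf proteins bind AU-rich elements, so the heptamer TATTTAT was counted in annotated 3′ untranslated regions of at least 50 nt, on the transcript strand. It was found in 41 of 151 genes of the set (27.2%), against 58 of 169 other Zfp genes (34.3%) and 4419 of 16909 genes of the table (26.1%). The share in the set was near that of the table. Median length of these regions was 1191 nt in the set, 1287 nt in the other Zfp genes and 822 nt over the table. The shares are not adjusted for length. Zfp534, Zfp664, Zfp758 and Zfp961 each had 1 match, Zfp600 and Rex2 had 0, and Zfp738 had 5 in a region of 10804 nt. The region is that of the longest coding transcript and may not be part of the model behind the FPKM, and a match is not evidence of binding.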

How the data were processed

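The labels describe RNA from E14 cells made into TruSeq libraries after fragmentation at 94 C. The submitters' processing notes name eXpress 1.1.1, CASAVA 1.8.2, the build mm9 and Bowtie 1.1.2, without their roles. The authors deposited 1 table with an eXpress header, holding total and unique read counts, not normalized. It also holds estimated counts as eXpress gave them, per the file headers. FPKM with its bounds was deposited by the authors on the effective length, per the file headers, and was recomputed from count, length and total to within 0.0173%. The row without a gene name repeats the total of 22625281 counts and was left out. The group comparison planned in case columns named libraries was not run, since none does. There were 0 unused columns of per-sample values. Strand handling is not stated, so genes that overlap or run antisense share reads that cannot be assigned.

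Levels on the model length are FPKM times effective length over model length, with the bounds scaled alike. GENCODE M21 (GRCm38), another build than that of the files, gave names, chromosomes and sequences, and no coordinates are printed. All 166 genes were matched, 2 through a synonym, and 146 had a transcript within 10% of the model length. Shared sequence was counted over 50 bases on both strands, leaving out overlapping genes. Fingers and KRAB boxes were found by residue patterns in translated coding sequences. A gene with 0 counts is given the limit of 3 counts. Alternatives were the model length, a threshold of 5 FPKM, at least 10 counts, stretches of 36 and 100 bases, and looser and stricter KRAB patterns. The calculations were tested on simulated data, with pandas 2.3.3, numpy 2.4.6, matplotlib 3.10.9 and scipy 1.17.1 under Python 3.11.15.

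The members, the role lists and the alternatives were chosen with earlier results of these data known. The rule for named genes takes the 15 highest genes, those among the 10 highest on the model length, the 5 lowest and 3 highest ratios with at least 100 counts, the genes beside 1 FPKM and beside the edge of the rule, and the role lists. Any other gene named was picked with its value in view.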

Additional observations from a re-analysis of the deposited data

How the results depend on the processing

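No paired analysis was possible because no column is tied to a library. Other tests, the replicate block and fits without single libraries were not run for the same reason. At a threshold of 5 FPKM, 86 genes of the set passed, against 139 at 1 FPKM. A minimum of 10 counts left 139, and the model length gave 143. The median of the set was 4.75 FPKM on the model length, 5.58 with at least 10 counts and 5.19 without Zfp534, Zfp600 and Rex2, the last chosen after seeing the data, against 5.22 as deposited. Genes with copies elsewhere numbered 20 with stretches of 36 bases and 8 with 100 bases, against 14 with 50. The median of the 14 with copies was 22.8 FPKM on the model length and 25.3 on the effective length without Zfp534, Zfp600 and Rex2, both added after seeing the data, against 40.0. The KRAB box was found in 90 genes by the looser pattern and in 35 by the stricter one, against 75. Among the 47 genes named by rule, the model length put 22 above their interval, 16 below it and 9 inside. The cause of these shifts was not tested. Depth limits the genes with few counts. Copies of a transcript limit Zfp534, Zfp600 and Rex2, and also others of the 14 such as Zfp781, Zfp960 and Zfp932. For Zfp931 and Zfp808, which had no matched transcript, shared sequence was not measured.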
